A study of Mus musculus with 2 samples.

Results

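Messenger RNA levels of 38 genes that encode histone deacetylases and the subunits of their corepressor complexes were examined among 18193 genes of a 3' expression array. The 38 are the 11 zinc-dependent deacetylases (Hdac1 to Hdac11), 4 sirtuins, the histone-binding proteins and BRMS1 proteins that SIN3 complexes use, and the specific subunits of NuRD, CoREST and NCoR, listed by name, with earlier results of these data known. E14, a mouse embryonic stem cell line, was grown on gelatin in serum with leukemia inhibitory factor and infected with lentivirus carrying either a non-targeting hairpin (shCtrl) or shSin3a-1, a hairpin against Sin3a, the scaffold of the SIN3 deacetylase complex. Both populations were selected with puromycin before total RNA was taken, and each group was 1 array made with 1 hairpin. No difference below therefore has a replicate check, no p-value or standard error can be given, and within these bulk samples fewer cells of a type and less RNA per cell cannot be told apart.

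Histone deacetylases remove acetyl groups from histone tails, which is usually linked to reduced transcription. HDAC1 and HDAC2 do not work alone but are shared between SIN3, NuRD and CoREST, while HDAC3 is the enzyme of NCoR. NuRD joins deacetylation to a CHD remodelling ATPase and a methyl-CpG-binding domain protein, and CoREST joins it to the histone demethylase LSD1. In embryonic stem cells NuRD is known to be needed for orderly exit from pluripotency.

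Most member mRNAs that passed the signal filter lay within 2-fold between the arrays, as did most of all kept genes. Of the 38 genes, 37 had a probe set with a single gene symbol, and 32 reached the signal filter, all of them on both arrays (the filter is the 60th percentile of an array, a deposited signal of 131 on shCtrl and 126 on shSin3a-1). Among these 32, Rcor3, a CoREST scaffold, was 2.38-fold higher with shSin3a-1 and no gene was lower by 2-fold or more. Over all 9782 genes kept by the same filter, 2.43% were 2-fold or more higher and 2.01% were 2-fold or more lower. With the deposited scaling, described next, these shares were 1.7% and 2.79%. At 1.5-fold, Rcor3 was again the single higher gene, and Chd3 of NuRD and Phf21a of CoREST were lower, against 10.2% of all kept genes higher and 6.76% lower (7.13% and 9.46% with the deposited scaling). The other 29 members lay within 1.5-fold. The members' own shares were 3.12% higher at 2-fold, and 3.12% higher and 6.25% lower at 1.5-fold, so that the count at 2-fold was near the background. Ncor1 had no probe set with a single symbol and is not analysed here.

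Differences are log2 values of shSin3a-1 minus shCtrl once the median of each array had been set equal, which adds 0.11 to every deposited difference. All kept genes then had a median of 0.07, and 41.2% of them lay below 0. The members had a median of -0.07, with 18 of 32 below 0. With the deposited scaling the members had a median of -0.18 and 22 of 32 lay below 0, against -0.03 and 54.2% for all kept genes. The members' median was thus 0.15 below that of all kept genes (log2 scale). The only other measurement of a gene on an array is by its other probe sets, whose log2 differences varied within a gene with an SD of 0.39 (4413 genes), or 0.26 among probe sets above the 75th percentile on both arrays (2196 genes). Of the 32 members, 27 differed by less than 0.39, as did 68.4% of all kept genes, and the others were Rcor3, Sirt7, Chd3, Phf21a and Mbd3. Sirt1, Rbbp4, Mta2 and Tbl1xr1 lay just above 0 and turned below it with the deposited scaling, and Rbbp7 (-0.0059 with scaling on the 75th percentile) and Rcor1 (-0.03 with quantile scaling) have no firm sign either. Hdac2, Chd4 and Tbl1x turned sign with the choice of probe sets, as described for each.

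**Figure D1:**
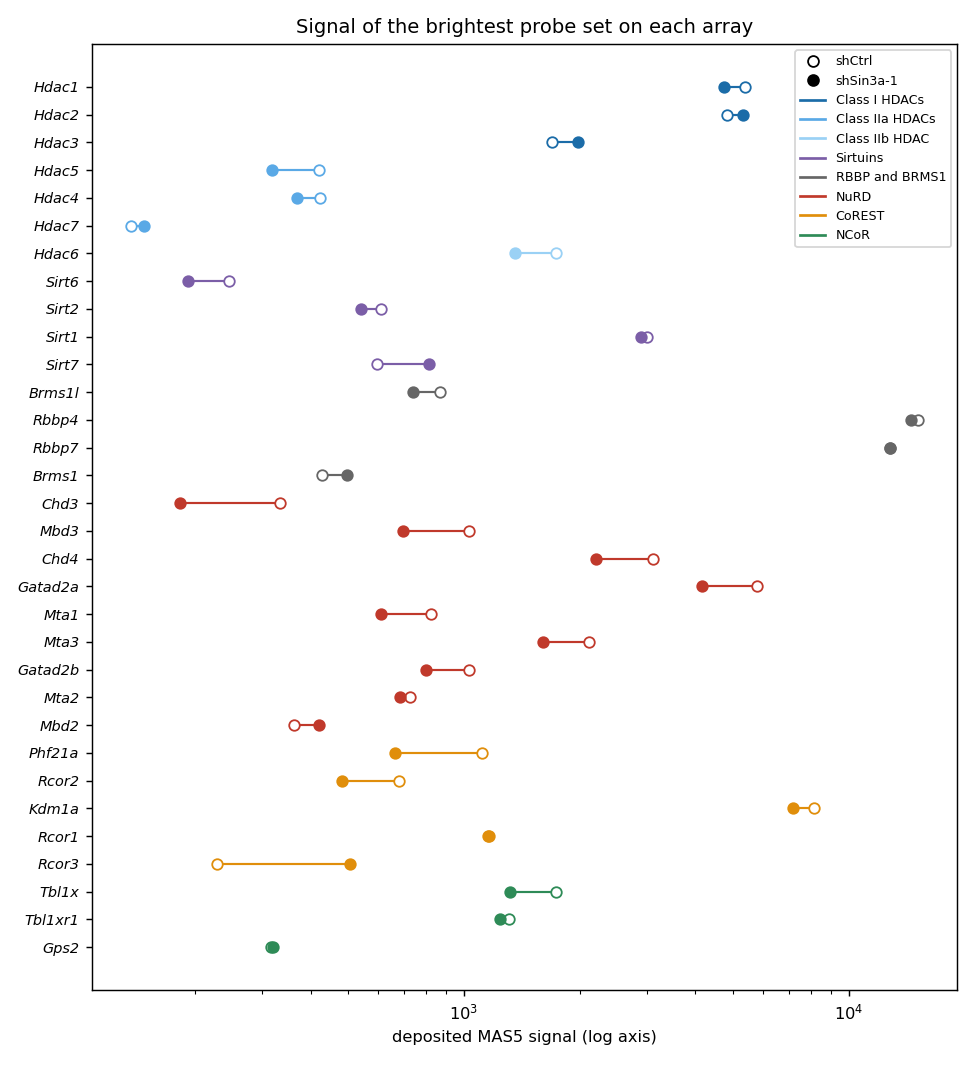
Deposited MAS5 signal (log axis) of the brightest probe set of each of the 32 kept members on the shCtrl array (open) and the shSin3a-1 array (filled), coloured by complex. Signals of different genes are not comparable, and the length of each line is the difference within a gene, longest to the right for Rcor3 (229 to 505) and to the left for Chd3 (334 to 184).

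Sin3a and the stem cell state were checked first. The Sin3a probe sets had log2 differences of -2.41, -2.30 and -1.63, all lower on the array labelled shSin3a-1. Of 8 stem cell markers all were kept and within 2-fold, with Pou5f1 at 0.05, Nanog at 0.12 and Sox2 at 0.22. Of 6 primitive endoderm markers 4 were kept (Sox17, Gata6, Pdgfra and Sox7), all of them through the shSin3a-1 array only, so that a higher value there was built into the choice. Over all 6 the summed signal was 388 on shCtrl and 774 on shSin3a-1. Sox17 had 41.1 and 221 (2.35, a lower bound with shCtrl at the floor) and Pdgfra had 58.5 and 131 (1.27), while Gata4 was under the filter and Foxa2 was at the floor on 1 array. Of 6 trophectoderm markers 3 were kept, on both arrays, and the summed signal was 2763 and 1426. These were Krt8 (-0.73), Krt18 (-1.12) and Tfap2c (-1.14), and Krt18 and Tfap2c passed 2-fold lower. The others were under the filter. Cdx2 had 8.61 on shCtrl, at the floor, and 70 on shSin3a-1. Eomes had 83.5 and 89, so that both were higher on shSin3a-1. Elf5 was at the floor on both arrays. Of 6 fibroblast markers Thy1 alone was kept, through shCtrl only, Col1a1, Col3a1, Lum and Dcn were at the floor on both arrays, and the sum was 299 and 223. Whether these shifts play a part in the values below was not tested.

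The kept genes of the class I deacetylases, the enzymes of the nuclear corepressor complexes, ran from -0.07 to 0.34. Hdac1 gave 5394 on the shCtrl array and 4757 on the shSin3a-1 array as deposited signals, the order used from here on, and its log2 difference was -0.07. Its paralogue Hdac2, with which it forms dimers, had 4845 and 5309 (0.24), and a second probe set gave 0.36, but the mean of all 3 probe sets, 1 of them under the filter, gave -0.11. The HDAC1 gene thus lay slightly below 0 and the HDAC2 gene slightly above, a gap of 0.31 that holds for the brightest probe sets. Hdac3, the catalytic subunit of NCoR, had 1694 and 1987 (0.34). Hdac8, a deacetylase that acts on cohesin, was under the filter, with 17.9 and 53.6.

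Class IIa enzymes have little deacetylase activity of their own and bind MEF2 factors and the HDAC3-NCoR complex. Hdac4 had signals of 422 and 370 (-0.08, with -0.11 in its second kept probe set). Hdac5 had 420 and 318 (-0.29). Hdac7 lay the other way at 137 and 148 (0.22), but it was a dim probe set, just above the filter. Its other probe set, under the filter, had 87.2 and 52.1 (-0.64). With the mean of all its probe sets Hdac7 was not kept. Hdac9 was under the floor on both arrays, with 29.5 and 18.3. Hdac6, a cytoplasmic deacetylase of tubulin, was lower on shSin3a-1 at 1733 and 1360 (-0.24). Hdac10, a polyamine deacetylase, and Hdac11, the class IV enzyme, did not reach the filter, with signals of 111 and 80.5 for Hdac10 and 72.4 and 70.2 for Hdac11. Of the 11 deacetylase genes 7 were kept, of which 4 lay below 0, against 41.2% of all kept genes. With the deposited scaling 4 again lay below 0, against 54.2%. Their median was -0.07, against 0.07 for all kept genes. None of the 7 reached 1.5-fold, where 10.2% of all kept genes were higher and 6.76% lower. With 7 genes these counts say little.

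Sirtuins are NAD-dependent deacetylases unrelated in mechanism to the HDACs. Sirt1, the nuclear sirtuin that deacetylates p53, had signals of 2990 and 2884 (0.06, or -0.05 with the deposited scaling). Sirt2, a mostly cytoplasmic enzyme, had 611 and 542 (-0.07). Sirt6, which acts on histone H3 at telomeres and glycolytic genes, had 246 and 192 (-0.25). Sirt7, a nucleolar enzyme linked to ribosomal RNA transcription, stood highest at 594 and 815 (0.57, or 1.48-fold). Each of the 4 was measured by a single probe set. Sirt7 lay at percentile 89.5 of the kept genes of like signal (1 of 5 classes by mean signal), where the middle 95% ran from -0.66 to 0.88.

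By brightest probe sets, the genes of the 2 histone-binding subunits that SIN3 shares with other complexes lay near 0, unlike Sin3a. RBBP4 and RBBP7 are WD40 proteins that hold histones for SIN3, NuRD and Polycomb. Rbbp4 had signals of 15158 and 14563 (0.05), and Rbbp7 had 12778 and 12793 (0.11). The brightest probe set of each carries the suffix that marks sequence shared with other transcripts. The other 3 probe sets of Rbbp4 disagreed, at 0.72, 0.47 and -0.36, and the lowest of these was the one without a suffix. Brms1, a SIN3 subunit first described as a metastasis suppressor, had 428 and 497 (0.33, and -0.01 in its second probe set), and its paralogue Brms1l had 868 and 736 (-0.13 and -0.07).

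**Figure D2:**
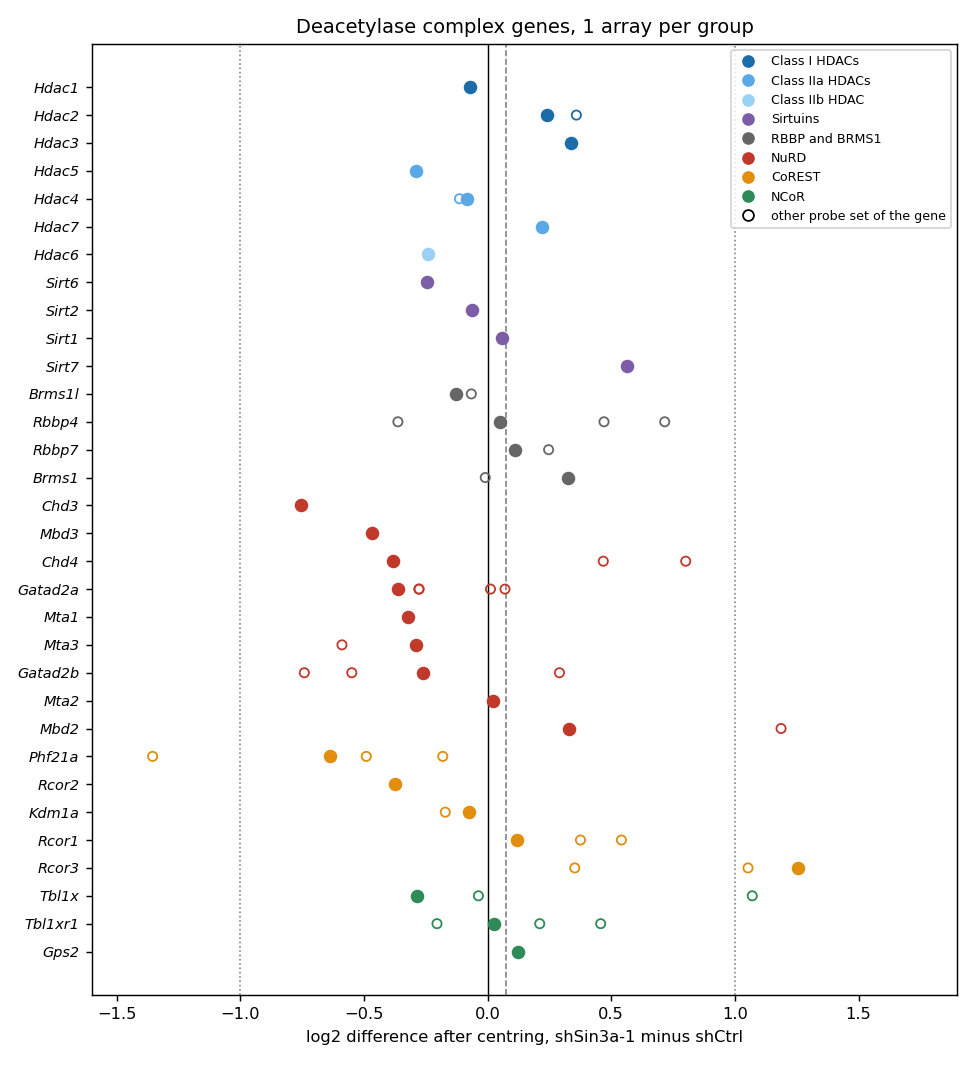
Log2 difference after centring (shSin3a-1 minus shCtrl) of each kept member: filled points are the brightest probe set, open points the gene's other kept probe sets. The solid line is 0, the dashed line the median of all kept genes (0.07) and the dotted lines 2-fold. Of the filled NuRD points 7 of 9 lie left of 0, as do 41.2% of all kept genes, and Rcor3 is the filled point beyond 2-fold.

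NuRD, the largest of the member lists, had the most genes below 0. By brightest probe sets 7 of its 9 specific subunits lay below 0, against 41.2% of all kept genes. With the mean of all probe sets it was 5 of 8, and the share of all kept genes was not computed for that setting. By brightest probe sets the 9 had a median of -0.32. Of these, 8 of 9 lay below the median of all kept genes, as 50% of kept genes do by definition. The median of the 9 was 0.40 lower than that of all kept genes (log2 scale), a distance that a change of array scale does not move. None of the 9 passed 2-fold, and Chd3 alone passed 1.5-fold, as did 6.76% of all kept genes in the lower direction. Of the 2 ATPases, Chd3 had signals of 334 and 184 (-0.75, 1 probe set). Chd4, the main NuRD ATPase of embryonic stem cells, had 3097 and 2202 (-0.38) in its brightest probe set but 707 and 1142 (0.80) and 527 and 676 (0.47) in the others. The direction of Chd4 is therefore not settled by these probe sets, and the brightest and the 0.47 probe set carry a suffix for sequence shared between transcripts.

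The MTA proteins bind and activate the HDACs within NuRD. Mta1 had signals of 820 and 609 (-0.32). Mta3 had 2115 and 1604 (-0.29), with -0.59 in its second kept probe set. Mta2 was near 0 at 726 and 684 (0.02, or -0.09 with the deposited scaling). By brightest probe sets the MTA1 and MTA3 genes thus differed by 0.03 and lay below the MTA2 gene by gaps of 0.34 and 0.31.

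The methyl-CpG-binding domain proteins MBD2 and MBD3 are alternative subunits of NuRD, and their genes lay on opposite sides of 0. Mbd3, which is the form needed for differentiation of embryonic stem cells, had signals of 1035 and 694 (-0.47), in its single probe set. Mbd2, the form that binds methylated DNA, had 362 and 421 (0.33) and, in a second and dimmer probe set, 116 and 246 (1.19). This dimmer probe set passed the filter on shSin3a-1 only, so that a higher value there was built into its choice. The gap between the pair was 0.80. The GATAD2 proteins link MBD to CHD. Gatad2a had 5769 and 4158 (-0.36), and its 5 kept probe sets ran from -0.36 to 0.07, with 3 below 0. Gatad2b had 1033 and 799 (-0.26), and 3 of its 4 kept probe sets lay below 0, from -0.74 to 0.29. The Gatad2b probe set at -0.74 passed the filter on shCtrl only, so that a lower value was built into its choice.

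Set against genes of like signal, no NuRD subunit was extreme. Kept genes were split into 5 equal classes by mean signal, and in the brightest class the middle 95% of differences ran from -0.38 to 0.63. Gatad2a lay just inside this range at percentile 2.91. Mbd3 lay at percentile 6.34 and Chd4 at 6.49 of their classes. Chd3, although it had the largest difference in NuRD, was in the dimmest class, where the range ran from -1.39 to 1.46, and lay at percentile 13.7. Of all 32 kept members, 1 (Rcor3) was outside the range of its class, which leaves out 5% of genes by construction.

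**Figure D3:**
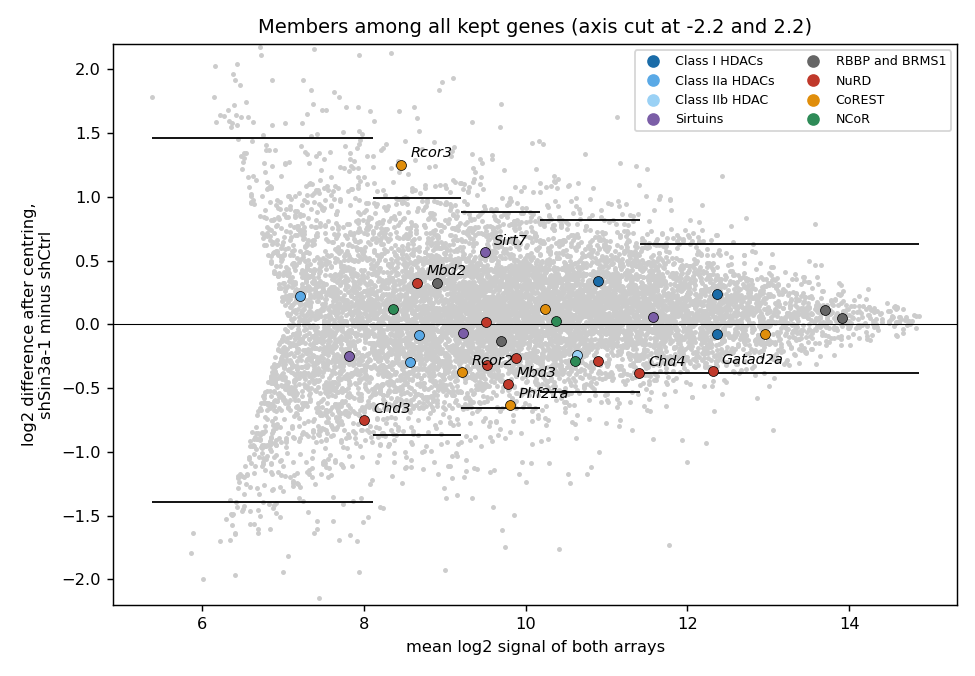
Log2 difference after centring against mean log2 signal for all 9782 kept genes (grey) and the 32 kept members (coloured by complex). Black lines bound the middle 95% of differences in each of 5 classes of signal; Rcor3 lies above its range, and Phf21a and Gatad2a lie just inside the lower bound of theirs.

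CoREST held the highest member, Rcor3, and the lowest after Chd3, Phf21a. RCOR proteins are the scaffolds that bridge LSD1 and HDAC1 or HDAC2. Rcor3, a form reported to counteract LSD1 activity, had signals of 229 and 505 (1.25) in its brightest probe set. Its other kept probe sets had 187 and 359 (1.05) and 137 and 162 (0.35). All 3 were higher on shSin3a-1, and 2 of them passed 2-fold, but the mean over all 6 probe sets, 3 of them under the filter, gave 0.58. Rcor1 had 1157 and 1165 (0.12), with 0.38 and 0.54 in its other probe sets. Rcor2, the form prominent in stem and neural cells, had 678 and 484 (-0.38, 1 probe set).

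The rest of CoREST was lower or flat. Kdm1a, which encodes the demethylase LSD1, had signals of 8151 and 7173 (-0.08) and -0.17 in its second probe set. Phf21a, which encodes the reader BHC80 of unmethylated histone H3 lysine 4, had 1113 and 664 (-0.64, 1.55-fold lower). All 4 of its kept probe sets lay below 0, from -1.36 to -0.18. Those at -1.36 and -0.49 passed the filter on shCtrl only, so that a lower value was built into their choice. The brightest and the one at -0.18 passed on both arrays. Hmg20b, an HMG-box subunit, was under the filter at 113 and 70.1. The 5 kept genes had a median of -0.08, with 3 below 0, against 41.2% of all kept genes.

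The 3 scaffold genes are shown here by the 250 bases before their listed starts, since they are paralogues of 1 complex that took different values (RefSeq, build GRCm38.p6, 5′ to 3′ on the gene's strand). The windows are chr12:111039117-111039366 on the plus strand for Rcor1, chr19:7267144-7267393 on the plus strand for Rcor2 and chr1:192138041-192138290 on the minus strand for Rcor3, each ending at the base before the start. Capitals mark GGGCGG, the GC box, on either strand (CCGCCC on the other) and CACGTG, the E-box of MYC, MAX and MXD proteins, of which the MXD repressors are known to recruit SIN3; these motifs do not overlap each other.
Rcor1: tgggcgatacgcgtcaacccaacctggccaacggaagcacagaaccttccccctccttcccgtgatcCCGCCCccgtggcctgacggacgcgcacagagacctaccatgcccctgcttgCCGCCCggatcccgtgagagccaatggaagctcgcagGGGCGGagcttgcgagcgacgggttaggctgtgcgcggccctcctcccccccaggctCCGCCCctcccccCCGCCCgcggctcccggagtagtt
Rcor2: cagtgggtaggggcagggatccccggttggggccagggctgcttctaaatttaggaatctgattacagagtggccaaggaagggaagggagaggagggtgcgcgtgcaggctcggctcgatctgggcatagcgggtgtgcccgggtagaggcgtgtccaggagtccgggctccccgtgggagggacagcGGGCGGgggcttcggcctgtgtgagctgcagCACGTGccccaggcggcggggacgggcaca
Rcor3: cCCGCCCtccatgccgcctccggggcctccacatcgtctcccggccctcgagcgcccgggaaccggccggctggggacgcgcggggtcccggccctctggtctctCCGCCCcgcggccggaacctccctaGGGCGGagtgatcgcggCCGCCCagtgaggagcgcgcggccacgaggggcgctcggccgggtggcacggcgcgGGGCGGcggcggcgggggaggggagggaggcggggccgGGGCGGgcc
Of these 3 windows that of Rcor3 was the richest in CpG, with 39 CpG dinucleotides and 6 GC boxes. The Rcor1 window had 25 and 5 and the Rcor2 window 17 and 1. The Sirt1 window also had 39 and 6, with a log2 difference of 0.06 for Sirt1. The Mta1 window had 39 and 3, with -0.32 for Mta1. The Rcor2 window was the one of these 3 with an E-box. Of the 38 members, 31 matched listed starts, in 43 windows. An E-box was in 3 of the 43 (6.98%), against 6.02% of 32841 windows of all genes and 8.72% of those of kept genes. These were windows of Rbbp4 (log2 difference 0.05), Rcor2 (-0.38) and Sirt1 (0.06). Whether a motif plays a part in these values was not tested. A GC box was in 31 of 43 (72.1%), against 32.7% of all windows and 60.1% of those of kept genes. A match of letters is not a binding site, and these 2 motifs are given as a description of the windows.

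NCoR was represented by 3 of its 4 listed subunits, all within 1.5-fold, a limit that 10.2% of all kept genes passed higher and 6.76% lower. Tbl1x, a WD40 subunit that exchanges corepressors, had signals of 1732 and 1318 (-0.29), with -0.04 and 1.07 in its other kept probe sets and 0.25 in the mean of all. The Tbl1x probe set at 1.07 passed the filter on shSin3a-1 only, so that a higher value was built into its choice. Its paralogue Tbl1xr1 had 1315 and 1241 (0.02), and its 4 kept probe sets ran from -0.21 to 0.46. Gps2, which restrains JNK signalling, had 317 and 320 (0.12). The median of the 3 was 0.02, and -0.08 with the deposited scaling.

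Probe sets of a gene often disagreed in sign at these small sizes. Of the 32 kept members, 15 had a single kept probe set and 17 had more. In 10 of the 17 (58.8%) all kept probe sets had one sign, as in 60.1% of the 4413 kept genes with several. The 7 with both signs were Rbbp4, Brms1, Chd4, Gatad2a, Gatad2b, Tbl1x and Tbl1xr1.

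Paralogues were compared within 17 pairs in which both genes were kept, of 21 listed. Such a gap does not depend on the array scale. The gap expected from other pairs of genes was not measured, so the gaps are given as values only. The widest were Rcor2 and Rcor3 (1.63), Rcor1 and Rcor3 (1.14), Sirt6 and Sirt7 (0.81), and Mbd2 and Mbd3 (0.80). Rcor3 is in the first 2 of these. The kept probe sets of Rcor1 (0.12 to 0.54) and Rcor3 (0.35 to 1.25) overlapped, so that their gap depends on the probe set used. The narrowest were Mta1 and Mta3 (0.03), Rbbp4 and Rbbp7 (0.06) and Gatad2a and Gatad2b (0.10). These gaps also depend on the probe set used. Kept probe sets ran from -0.59 to -0.29 for Mta3, from -0.36 to 0.72 for Rbbp4 and from -0.74 to 0.29 for Gatad2b. The lowest of Gatad2b passed the filter on shCtrl only.

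**Figure D4:**
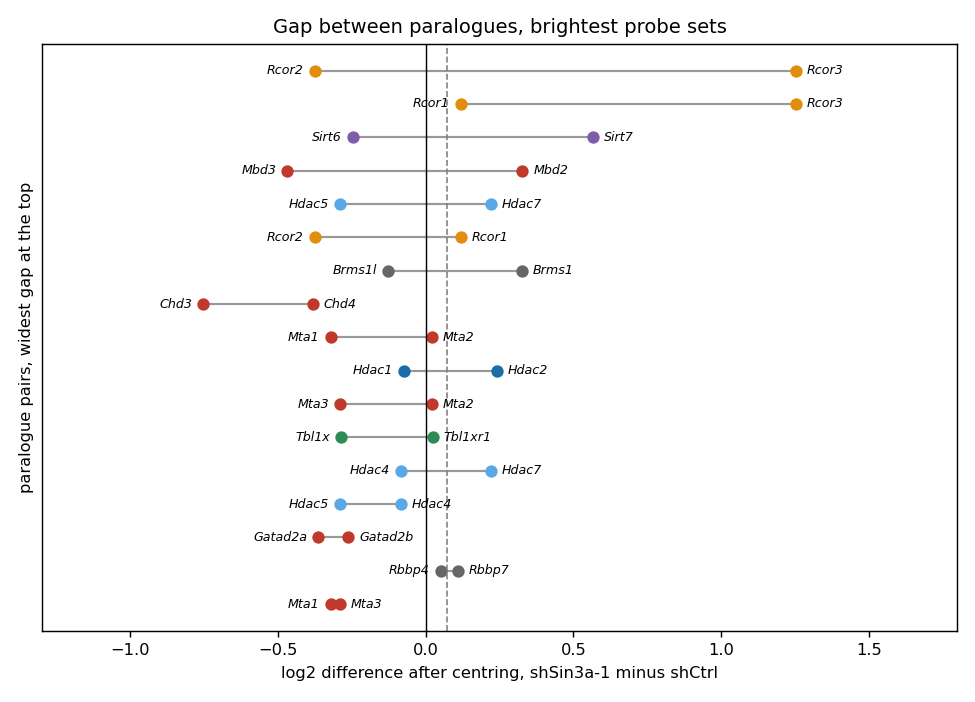
Log2 difference after centring (shSin3a-1 minus shCtrl) of both genes of each of 17 paralogue pairs, by brightest probe set, ordered by the gap between them. Pairs at the top with Rcor3, Sirt7 and Mbd2 on the right have gaps of 0.80 or more, and Mta1 and Mta3 at the bottom differ by 0.03.

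Companion genes of the same complexes were taken from fixed lists. Of 51, 40 were kept, with a median of 0.03. Of the 40, 1 was 2-fold or more higher and 1 lower, against 2.43% and 2.01% of all kept genes. Dnajb5, a chaperone that binds class IIa deacetylases, was higher with signals of 180 and 356 (1.10), although another kept probe set gave -0.01. Thra, a thyroid hormone receptor that binds NCoR, was lower with 264 and 116 (-1.07) and passed the filter on shCtrl only. Among the other lists the largest differences were -0.46 for the mitochondrial sirtuin gene Sirt3, 0.54 for Pwwp2a of a NuRD variant, whose second probe set was at -0.45, -0.61 for Gse1 of CoREST and 0.54 for Mideas, the scaffold of the mitotic deacetylase complex. The 9 kept companions of NuRD had a median of 0.01, with 4 below 0 (41.2% of all kept genes), and the 9 of CoREST a median of 0.13.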

How the data were processed

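The authors deposited MAS5 signals, linear intensity values made with Affymetrix Expression Console according to the submitters' processing notes; no version is given in the sources. Both arrays had a mean of 500 after 2% of values were trimmed at each end, and the number of arrays limits the precision. Genes were named from the platform annotation (34958 probe sets with 1 symbol, 932 with several, 9211 with none), and 34754 symbols were matched by Entrez identifier to the RefSeq table of GRCm38.p6. In Python 3.11.15, signals were taken to log2 and the arrays were set to a common median over non-control probe sets, because the medians differed by more than 0.1. The probe set with the highest mean represented a gene. Genes were kept if the brighter value reached the 60th percentile, and values under the 40th were set to it as a floor. No test was possible with 1 array per group, and counts used a fixed 2-fold. The procedure was tested on simulated data. Alternatives were other scalings, floors, filters, probe set choices, an offset and a 1.5-fold limit. All 38 members were named, with companions at 2-fold or else the largest of each list. Members and lists were chosen with earlier results of these data known.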

Additional observations from a re-analysis of the deposited data

How the results depend on the processing

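The number of members higher by 2-fold or more was 1 (Rcor3) under all alternatives but these: it was 0 with the mean of all probe sets and 0 where all kept probe sets had to pass. The mean also turned Hdac2 to -0.11 and the class I median to -0.07. The number lower was 0 under all alternatives except the 1.5-fold limit, which gave 2 (Chd3 and Phf21a). Over 9 alternative settings the NuRD median ran from -0.46 to -0.21 and its distance from all kept genes from -0.42 to -0.26. The count of NuRD subunits below 0 was 8 of 9 with the deposited scaling, against 54.2% of all kept genes. It was 5 of 8 with the mean of probe sets, for which the share of all kept genes was not computed. Of 282 single values 276 moved by under 0.39, the SD between probe sets of a gene. The exceptions were Chd4 (0.30 with the mean of probe sets, 0.80 without suffixed ones), Mbd2 (0.76), Rcor3 (0.58) and Tbl1x (0.25) with the mean, and Rbbp4 (-0.36) without suffixed probe sets. In 23 of 32 members the sign held in every setting in which the gene was kept. The settings that could not move a value count toward this. A gene with 1 probe set cannot change with the choice of probe sets. Dim signals near background limit Hdac8, Hdac9, Hdac10, Hdac11 and Hmg20b, which have no reliable difference. No paired analysis was possible because each group had 1 array.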
